A study of Mus musculus with 38 samples.

Results

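Actin, tubulin, neurofilament and glycolysis genes are often used as reference or structural markers in differentiating neural cells. The data described here are the 5 such genes Actg1, Actb, Tubb5, Gapdh and Nefh, taken by gene symbol. They were chosen with earlier results of these data known. Each was read by 1 probe of an array with 576 probes, of which 473 carry 1 named gene. Neuro2A, a mouse neuroblastoma line that extends neurites when it differentiates, was profiled on 38 single-colour mKIAA oligonucleotide arrays hybridised with Cy5-labelled poly(A)+ RNA. The 7 control arrays (0 h) came from cells precultured for 48 h in 10% fetal bovine serum (FBS). The treated arrays came from cells moved after that preculture to 2% FBS with 20 uM all-trans-retinoic acid (RA) for 1 h (5 arrays), 3 h (5), 6 h (7), 12 h (7) or 24 h (7). All groups are the same unmodified cell line, and each replicate pooled 4 to 6 plates. No control with a change of medium alone is named in the labels, so RA, the lower serum and time in culture cannot be told apart. Nothing in the labels ties replicates to separate passages of the line, and the p-values measure the spread between these arrays. Poly(A)+ RNA of many cells was measured, so fewer expressing cells and less RNA per cell cannot be told apart.

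Actb and Actg1 encode beta- and gamma-actin, the cytoplasmic actins that polymerise into the filaments of the cell cortex, growth cones and neurites. Tubb5 encodes a beta-tubulin that pairs with alpha-tubulin to build microtubules, and Nefh encodes the heavy neurofilament subunit, an intermediate filament protein of mature axons. Gapdh encodes glyceraldehyde-3-phosphate dehydrogenase, an enzyme of glycolysis that is widely used as a reference transcript. RA acts through nuclear receptors that bind repeats of a short element, while serum acts on actin genes through serum response factor, which binds the CArG box.

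A window before an annotated start was available for 3 of the 5 genes in RefSeq (GRCm38.p6), and for Actg1 and Tubb5 it is shown to place these elements in genes that were measured here. The 250 bases before the annotated start are printed 5′ to 3′ on the gene's strand, which is the minus strand for both. Capitals mark CCAAT and the CArG box (CC, then 6 letters of A or T, then GG), read on both strands.
Actg1, chr11:120348496-120348745: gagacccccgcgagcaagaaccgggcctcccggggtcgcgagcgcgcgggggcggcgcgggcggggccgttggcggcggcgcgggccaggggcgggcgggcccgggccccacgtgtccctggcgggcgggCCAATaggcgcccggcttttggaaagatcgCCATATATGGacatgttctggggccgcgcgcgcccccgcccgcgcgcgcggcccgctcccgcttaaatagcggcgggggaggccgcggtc
Tubb5, chr17:35838302-35838551: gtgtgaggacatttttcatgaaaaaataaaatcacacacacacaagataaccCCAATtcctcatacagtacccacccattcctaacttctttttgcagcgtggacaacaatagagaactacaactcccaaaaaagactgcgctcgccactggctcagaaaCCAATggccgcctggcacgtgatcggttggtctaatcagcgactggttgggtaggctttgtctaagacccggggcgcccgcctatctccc
Counted from the start, the Actg1 window held 1 CArG box that begins at position -90 and 1 CCAAT that begins at -120, and the Tubb5 window held CCAAT at -198 and -90 and no CArG box. A CArG box was present in 1.47% of 32851 mouse upstream windows of the same length, and CCAAT in 33.8%. The receptor half-site AGGTCA, present in 14.0% of the windows, was not among the letters of the Actg1 or Tubb5 window. The window listed for Gapdh lies inside the annotated span of the gene and is not described. These matches describe the letters of the windows only.

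The deposited values are linear intensities with no unit and a lowest value of 0.540 that many dim probes share, and no member was at that floor on any array. The interquartile range of an array's log2 values was 1.51 ± 0.22 (SD, n = 7) at 0 h and 0.879 ± 0.157 (SD, n = 7) at 24 h, so the middle of the distribution was narrower at 24 h. The array maximum ran from 96.5 to 231 at 0 h and from 58.9 to 200.2 at 24 h. For that reason each course is given as deposited and after quantile normalisation, which gives every array the same distribution. The 5 arrays with the lowest median rank correlation with the others were 1 h replicate 1 (0.593), 3 h replicate 1 (0.612), 24 h replicate 1 (0.646), 6 h replicate 3 (0.672) and 12 h replicate 5 (0.698), and the highest correlation was 0.860. Of 19 neuronal markers listed for a check of the cell type the array holds 1, Nefh, and of 15 neuroblastoma and sympathoadrenal markers, 10 of fibroblasts, 9 of glia and 6 of myeloid cells it holds 0, so the identity of the cells could not be checked. Orders of brightness below are of signal, and no level was set between genes as an RNA amount, because each probe has its own response.

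Actg1 was the brightest named probe at 0 h, and its deposited intensity was lower on all 7 arrays at 24 h than the control mean, without passing the test. At 0 h its intensity ran from 34.9 through a median of 106 to 202 over 7 arrays. It read 35.0, 117, 127, 138 and 118 on the 5 arrays at 1 h. One array stood apart in each of these groups: replicate 1 gave the lowest value both at 0 h and at 1 h. At 3 h it read 35.9, 55.7, 59.3, 278 and 96.9, at 6 h it ran from 36.0 through 45.3 to 118, and at 12 h from 32.4 through 65.5 to 191. At 24 h it ran from 31.0 through 44.1 to 78.1. The 24 h arrays thus lay below every control array other than replicate 1, with which they overlapped.

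As deposited, the log2 change of Actg1 at 24 h was -1.24 ± 0.41 (SE), which is 2.36-fold lower, with an adjusted p of 0.0804 in limma. After quantile normalisation the change was -0.80 ± 0.32 (adjusted p = 0.490), with all 7 arrays below the control mean. This call depended on control replicate 1 and, as deposited, on the model. Without control replicate 1, the change was -1.10 with an adjusted p of 0.0163 after quantile normalisation and -1.52 with an adjusted p of 0.0218 as deposited. Over the 38 fits that each left out 1 array the adjusted p ran from 0.0163 to 0.705 on the quantile scale. With a block for the replicate number in the fit of the deposited values it was 0.0435. On control replicate 1, unnamed probe 168 was the brightest at 231, while Actg1 held the first place on the other 6 control arrays. At 24 h probe 168 was brightest on 7 of 7 arrays and Actg1 took place 2 or 3.

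Actb, the other cytoplasmic actin, had a course of its own, with a higher mean at 3 h and a lower mean at 24 h than at 0 h, and neither difference passed the test. Its intensity at 0 h ran from 32.3 through a median of 38.4 to 100.6 over 7 arrays, with replicate 6 highest. It read 22.2, 73.9, 60.2, 149.9 and 75.7 at 1 h and 33.8, 55.7, 71.8, 212 and 125 at 3 h. At each of these times 4 of the 5 arrays were above 6 of the 7 control arrays. At 6 h it ran from 6.26 through 54.1 to 293, at 12 h from 6.50 through 71.1 to 112, and at 24 h from 9.10 through 19.9 to 50.4. The 6 h arrays spread over the widest range of any group of this gene, on both sides of all control arrays. As deposited, the log2 change was 0.87 ± 0.68 (SE) at 3 h (adjusted p = 1 in limma) and -1.01 ± 0.62 at 24 h (adjusted p = 0.338). After quantile normalisation these were 0.70 ± 0.47 (adjusted p = 0.990) and -0.51 ± 0.43 (adjusted p = 0.603).

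Tubb5, the beta-tubulin, had its lowest mean at 6 h on both scales, and the difference from 0 h did not pass the test. Its intensity at 0 h ran from 18.4 through a median of 25.3 to 55.3 over 7 arrays, and it read 10.8, 36.0, 39.2, 43.9 and 28.5 at 1 h. At 3 h it read 3.99, 25.4, 32.5, 36.8 and 33.1. Replicate 1 was the low array at both times, and the other 8 arrays lay inside the control range. At 6 h Tubb5 ran from 2.42 through 16.7 to 32.0, at 12 h from 4.28 through 19.2 to 45.8, and at 24 h from 5.17 through 12.9 to 29.1. All 3 late groups overlapped with the control. As deposited, the log2 change was -1.39 ± 0.52 (SE) at 6 h, 2.62-fold lower, with 6 of 7 arrays below the control mean (adjusted p = 0.282 in limma), and -1.07 ± 0.52 at 24 h (adjusted p = 0.220). After quantile normalisation it was -0.76 ± 0.35 at 6 h (adjusted p = 0.791) and -0.29 ± 0.35 at 24 h (adjusted p = 0.747).

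Gapdh had its lowest deposited mean at 6 h, with 7 of 7 arrays below the control mean. Its intensity at 0 h ran from 20.4 through a median of 35.8 to 39.9 over 7 arrays, and it read 23.8, 47.3, 43.6, 27.9 and 17.1 at 1 h. At 3 h it read 18.3, 33.2, 27.3, 20.8 and 24.2. At both times the arrays lay on both sides of the lowest control array. At 6 h Gapdh ran from 9.54 through 16.1 to 24.3, at 12 h from 9.26 through 19.1 to 65.3, and at 24 h from 14.1 through 15.5 to 22.9. The 6 h and 24 h groups overlapped with the control only at the control's low end. As deposited, the log2 change was -1.08 ± 0.30 (SE) at 6 h (2.11-fold lower, adjusted p = 0.120 in limma) and -0.93 ± 0.30 at 24 h (1.91-fold lower, adjusted p = 0.0804). After quantile normalisation it was -0.42 ± 0.29 (adjusted p = 0.791) and -0.52 ± 0.29 (adjusted p = 0.565).

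Nefh, the neurofilament gene, had the lowest intensity of the 5 and passed the test between late and early times on the deposited values, and not after quantile normalisation with equal weights for the arrays. Its intensity at 0 h ran from 1.67 through a median of 2.90 to 4.47 over 7 arrays, and it read 1.69, 4.63, 3.69, 3.02 and 2.17 at 1 h. At 3 h it read 1.75, 4.23, 4.18, 4.03 and 2.85. Replicate 1 was again the low array at both times. At 6 h Nefh ran from 1.55 through 2.02 to 2.62, at 12 h from 1.25 through 2.24 to 3.98, and at 24 h from 1.27 through 1.67 to 1.80. The 24 h arrays were the tightest group and lay at or below the low end of the control.

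The mean of 12 h and 24 h was set against that of 1 h and 3 h, with all 4 groups treated. As deposited, Nefh fell by 0.65 ± 0.18 (SE) on the log2 scale, from 1.60 to 0.95, which is 1.57-fold (adjusted p = 0.0183 in limma). The call held in each of the 38 fits that left out 1 array, with adjusted p from 0.00542 to 0.0496. Fits without a control or 6 h array kept the same difference, because those groups are not part of it. After quantile normalisation the difference was -0.12 ± 0.13 (adjusted p = 0.708), and with array quality weights added it was -0.28 (adjusted p = 0.0216). With median centring of the deposited values it was -0.72 (adjusted p = 0.0159). With each array's interquartile range as a covariate of the deposited values it was -0.089 (adjusted p = 0.798), and without the 8 arrays that have no probe at the floor it was -0.52 (adjusted p = 0.209). Nefh against 0 h at 24 h was -0.81 ± 0.24 as deposited (adjusted p = 0.0631, 7 of 7 arrays below the control mean) and -0.31 ± 0.16 after quantile normalisation (adjusted p = 0.565). The deposited 24 h change of Nefh passed in 6 of the 38 fits that left out 1 array, namely control replicate 1, 2 or 3, 1 h replicate 1, 3 h replicate 1 or 12 h replicate 2. Its adjusted p over these 38 fits ran from 0.0199, without control replicate 1, to 0.147. With a block for the replicate number on the deposited values, the adjusted p of Nefh was 0.0330 at 24 h and 0.00749 between late and early times. Actb between late and early times gave -1.25 ± 0.48 as deposited (adjusted p = 0.0656) and -0.66 ± 0.33 after quantile normalisation (adjusted p = 0.355). Its deposited difference passed without 1 h replicate 1 (adjusted p = 0.0355), 3 h replicate 1 (0.0388), 6 h replicate 2 (0.0432) or 12 h replicate 7 (0.0438). It also passed with the block for the replicate number (0.00267).

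**Figure D1:**
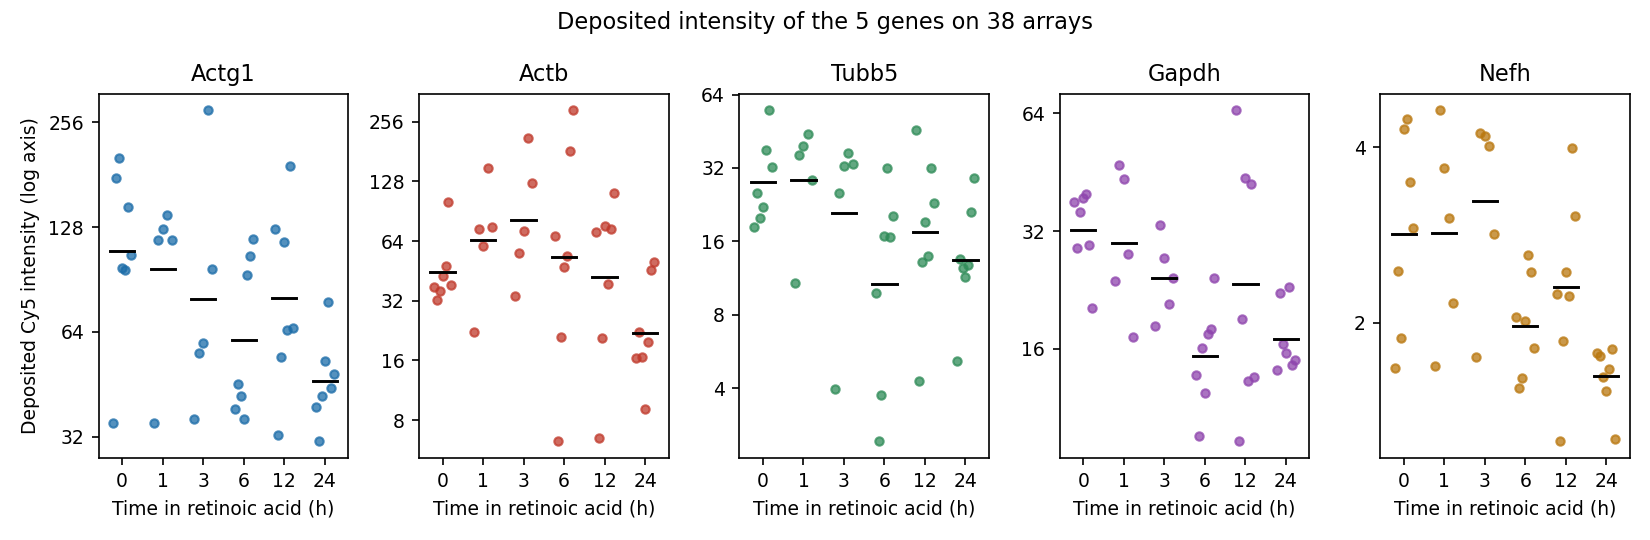
Deposited Cy5 intensity (log axis, a separate range for each gene) of the 5 genes on 38 arrays against time in RA. Each point is 1 array and each bar the geometric mean of a group; at 24 h the highest Actg1 value is 78.1, below 6 of the 7 control arrays.

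Counted together, 0 of the 5 members passed limma's test against 0 h at any of the 5 times after quantile normalisation. The share of all 576 probes that passed was 0% for each of 1 h, 3 h and 12 h, 0.174% for 6 h and 1.04% for 24 h. An unadjusted p under 0.05 was reached by 0 members at 1 h and 0 at 3 h, by Actg1 and Tubb5 at 6 h and by Actg1 alone at 12 h and at 24 h, and among all probes by 33 at 6 h, 23 at 12 h and 39 at 24 h. In the test over all times 0 of 5 passed, against 1.04% of the probes, and between late and early times 0 of 5 against 0.347%. In both, 0 members had an unadjusted p under 0.05, as did 37 of the 576 probes over all times and 78 between late and early times. As deposited, 0 of 5 passed at each time, where the probes that passed made up 0% (1 h), 0.174% (3 h), 0.347% (6 h), 0.174% (12 h) and 1.91% (24 h). There, 4 members had an unadjusted p under 0.05 at 6 h (all but Actb), as did 69 of the 576 probes, and the same 4 at 24 h, as did 129 of the probes. Between late and early times 1 of 5 passed as deposited, where 13.5% of all probes did, with 2 members (Actb and Nefh) and 187 probes at an unadjusted p under 0.05. In the deposited test over all times 0 of 5 passed against 2.95%, with 2 members (Gapdh and Nefh) and 101 probes at an unadjusted p under 0.05.

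The size of the deposited changes of these bright genes has to be read beside that of other bright probes. At 24 h the 58 brightest probes, which include all 5 members, had a median log2 change of -0.76 as deposited, with 53 of the 58 lower. The next 58 had a median of -0.40, and the other 460 a median of 0.10. The members' deposited changes at 24 h, from -0.81 to -1.24, were all on the low side of that median. After quantile normalisation the median of the 58 brightest was -0.12, and the members lay from -0.29 to -0.80. Across the 38 arrays the deposited log2 value of a member followed the interquartile range of its array, with r from 0.60 for Actg1 to 0.79 for Nefh. The 2 measures come from the same array, and whether the narrower range accounts for the lower values was not tested. With that range as a covariate of the deposited values, the 24 h change was 0.51 for Actb, 0.22 for Tubb5, -0.45 for Actg1, -0.26 for Gapdh and -0.22 for Nefh. The direction of the 24 h change also depended on the scaling: when each array was centred on its median and divided by its spread, it was 1.86 for Actg1, 1.51 for Actb, 1.15 for Tubb5 and 1.36 for Gapdh, and -0.29 for Nefh. Actg1, Actb, Tubb5 and Gapdh together held 20.7% ± 4.9 (SD, n = 7) of an array's summed intensity at 0 h and 11.6% ± 2.8 (SD, n = 7) at 24 h.

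**Figure D2:**
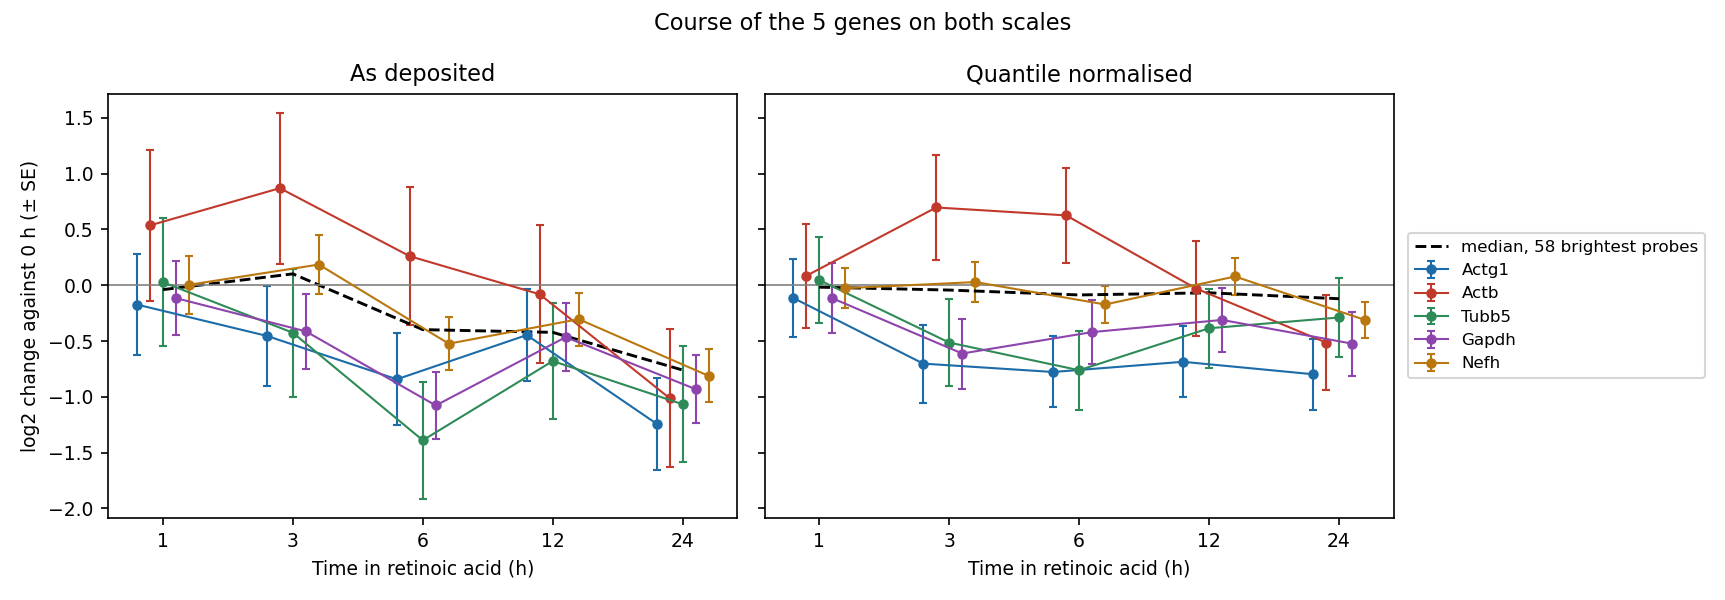
Log2 change of each gene against 0 h (mean and SE from limma, 38 arrays) at 5 times in RA, as deposited on the left and quantile normalised on the right. The dashed line is the median of the 58 brightest probes, which reaches -0.76 at 24 h on the left and -0.12 on the right.

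The order of probe signals within an array does not depend on the scaling of arrays. Actg1, Actb and Gapdh were each among the 6 brightest probes on 38 of 38 arrays and Tubb5 on 35, with its lowest place 15. Nefh held places 25 to 158. Its median place was 40 of 576 at 0 h and 79 at 24 h, with ranges that overlapped, 33 to 92 against 57 to 158. An array's maximum was unnamed probe 168 on 22 arrays, Actg1 on 12 and Actb on 7, counting ties. On 3 h replicate 2, Actg1, Actb and probe 168 all read 55.7, and on 1 h replicate 2 Actg1 and probe 168 shared the maximum of 117. The cause of these shared maxima was not tested. After quantile normalisation the top probes can take few values: the 38 arrays held 5 distinct values of Actg1, 6 of Actb, 5 of Tubb5, 5 of Gapdh and 33 of Nefh, so for the first 4 genes that scale records little more than a place.

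The members varied strongly between arrays of the same group. As deposited, the pooled SD within groups was 1.22 log2 units for Actb, the largest of all 576 probes. It was 1.03 for Tubb5 (place 3), 0.81 for Actg1 (place 11), 0.59 for Gapdh (place 63) and 0.46 for Nefh (place 172). The median was 0.363 over all probes and 0.421 over the 227 probes never at the floor. After quantile normalisation Actb was at place 2 with 0.81, Tubb5 at 15, Actg1 at 28, Gapdh at 65 and Nefh at 362 with 0.31. Gapdh, a common reference transcript, and the 2 actins were thus more variable than the median probe as deposited. Their SD was also above the median after quantile normalisation, but there places 1, 2 and 3 hold 7.13, 6.21 and 5.43. A change of 1 place among the brightest probes thus moves a value far, so that SD is no separate measure of variability.

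**Figure D3:**
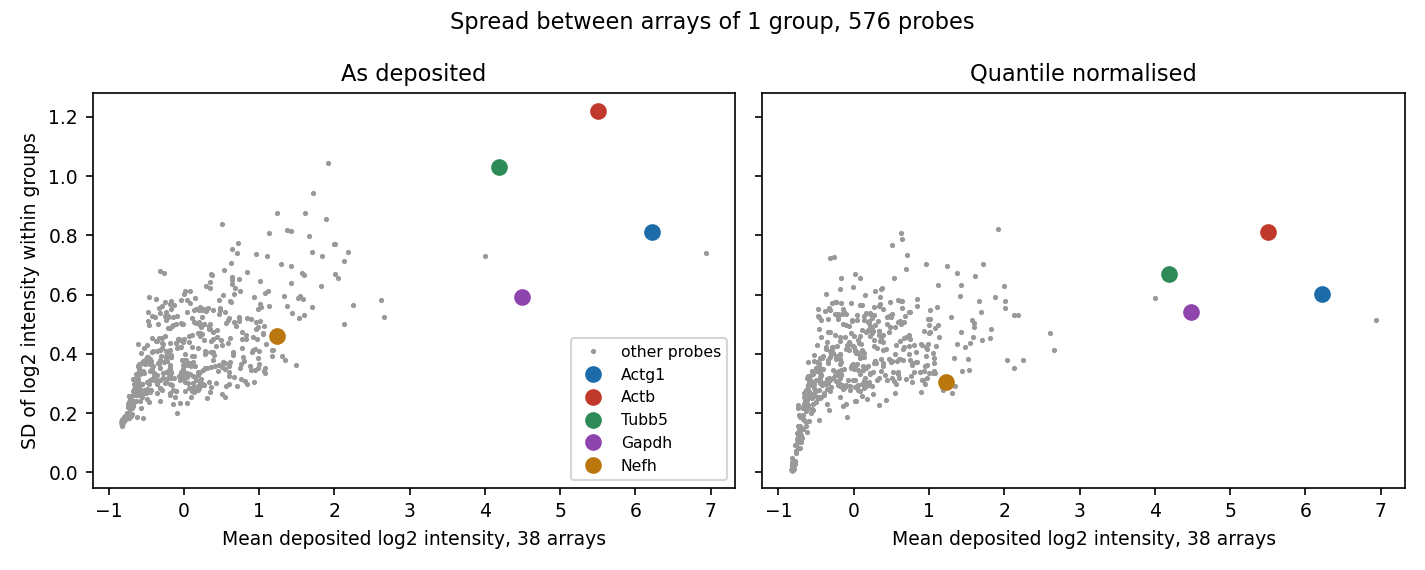
Pooled SD of log2 intensity between arrays of the same group against mean deposited log2 intensity, for all 576 probes, as deposited and quantile normalised. Actb has the largest SD as deposited (1.22), and Nefh (0.46) lies among probes of like brightness.

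A ratio between members within an array cancels a factor common to the array, but not a difference in its range. With 10 pairs at 5 times, 50 ratios were compared with 0 h by two-sided exact permutation tests on the deposited values. None of the 50 passed after Benjamini-Hochberg adjustment, and 4 had an unadjusted p under 0.05. The ratio of Actb to Tubb5, an actin over a tubulin, gave the smallest p-values as deposited. It ran from 1.19 through a median of 1.80 to 2.05 on the 7 control arrays. At 1 h it read 2.05, 2.05, 1.54, 3.41 and 2.65, and at 3 h 8.47, 2.19, 2.21, 5.75 and 3.78. All 5 arrays at 3 h were above all 7 control arrays. At 6 h the ratio ran from 1.69 through 5.59 to 14.5, at 12 h from 1.52 through 2.29 to 4.86, and at 24 h from 0.800 through 1.65 to 3.20. The 6 h group overlapped with the control through its lowest array, and the 24 h group lay on both sides of the control range.

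The log2 ratio of Actb to Tubb5 differed from 0 h by 1.30 ± 0.35 (SE) at 3 h, 2.45-fold, with exact permutation p = 0.00253, the smallest the 792 splits of 5 against 7 arrays allow, and adjusted p = 0.0728. At 6 h it differed by 1.65 ± 0.45, 3.14-fold, with 7 of 7 arrays above the control mean (exact permutation p = 0.00291, adjusted p = 0.0728). At 24 h the difference was 0.054 ± 0.263 (exact permutation p = 0.842, adjusted p = 0.957). After quantile normalisation the differences at 3 h and 6 h were 1.21 and 1.39, each with an adjusted p of 0.189. The 2 genes also moved together between arrays of a group, with r = 0.80 of deposited log2 values within groups over 38 arrays, which share each array's intensity range. The highest ratio at 3 h, 8.47, was on replicate 1, where Tubb5 was low at 3.99 and Actb, at 33.8, was inside the control range. That array had a median rank correlation of 0.612 with the others. The highest ratios at 6 h were on the arrays where Actb was brightest, at 182 and 293.

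The ratio of the 2 actins, Actg1 over Actb, showed no difference that passed. It ran from 0.925 through a median of 2.30 to 5.61 on the 7 control arrays. At 1 h it read 1.58, 1.58, 2.10, 0.922 and 1.55, and at 3 h 1.06, 1.00, 0.826, 1.31 and 0.775. The 3 h arrays lay from below the control range to its low end. The ratio of 1.00 on 3 h replicate 2 comes from the array on which both probes share the maximum. At 6 h the ratio ran from 0.404 through 0.758 to 7.23, at 12 h from 0.587 through 1.77 to 4.99, and at 24 h from 0.963 through 2.35 to 5.79. The log2 ratio at 3 h differed from 0 h by -1.32 ± 0.45 (SE), with exact permutation p = 0.0126 and adjusted p = 0.210. After quantile normalisation it differed by -1.40 at 3 h and by -1.40 at 6 h, each with an adjusted p of 0.306. At 24 h it differed by -0.23 ± 0.52 (adjusted p = 0.899 from the exact permutation test). The 2 genes encode related actins and the probe sequences were not analysed here. How far each probe reads the other transcript was therefore not tested, and these values are uncertain to that extent.

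**Figure D4:**
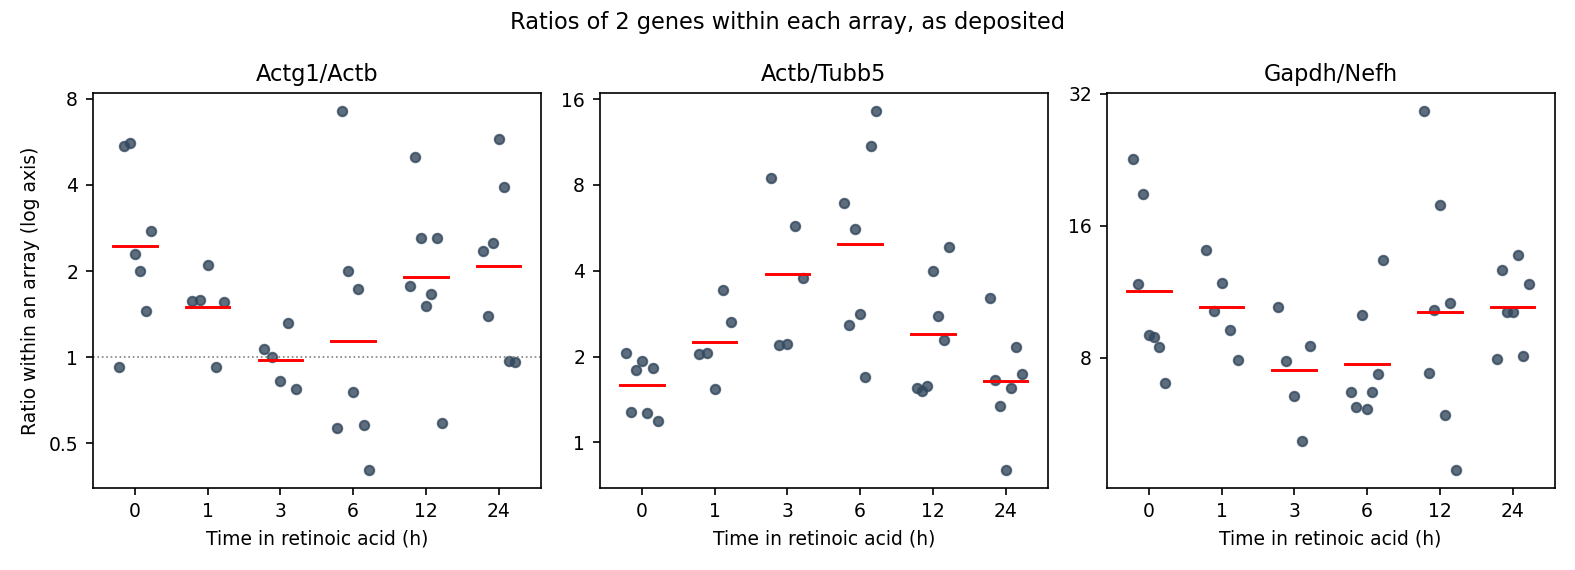
Ratio of the deposited intensities of 2 genes within each array (log axis) against time in RA for 3 of the 10 pairs, with 1 point per array and a bar at the geometric mean of each group. Actb over Tubb5 at 3 h lies above every control array, from 2.19 against a highest control value of 2.05.

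Actb over Gapdh differed from 0 h by 1.28 ± 0.50 (SE) on the log2 scale at 3 h (exact permutation p = 0.0354, adjusted p = 0.442) and by 1.34 ± 0.62 at 6 h, 2.53-fold, with 5 of 7 arrays above the control mean (exact permutation p = 0.0542, adjusted p = 0.445). Gapdh over Nefh, the steadiest pair with a pooled SD within groups of 0.57 log2 units, ran from 7.02 through a median of 9.02 to 22.7 at 0 h and from 7.93 through 10.2 to 13.7 at 24 h. Actb over Gapdh was the most variable pair, with an SD of 1.11. At 24 h, where the deposited means of all 5 genes were lower than at 0 h, the 10 log2 ratios differed by -0.43 to 0.054, with adjusted p of 0.756 or above from exact permutation tests. Their standard errors, from 0.26 to 0.52, are wide beside these differences. When each array's log2 values were divided by its interquartile range, 8 of the 10 turned to higher values, up to 2.07 for Actg1 over Nefh. These values are in units of that range and not in log2 units. The range averaged 1.51 at 0 h and 0.879 at 24 h, and division by a smaller range enlarges a positive log2 ratio. The turn therefore cannot be read as a change of the genes.

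Since some of these genes, such as Gapdh, serve as references, each array was also divided by 1 member in turn and the other 575 probes were tested with limma. Nefh, a neurofilament gene and no common reference, was treated in the same way. At 24 h against 0 h the median log2 change of those probes was then 1.33 with Actg1 as the reference, 1.15 with Tubb5, 1.10 with Actb, 1.02 with Gapdh and 0.90 with Nefh. The share that passed was 75.5% (434 probes) with Actg1, 67.7% (389) with Gapdh and 67.3% (387) with Nefh, and 0% with Actb and with Tubb5. All the calls were higher, except 1 with Nefh. With Actb 71 probes and with Tubb5 238 had an unadjusted p under 0.05. At 6 h the order was different, with 466 probes called with Tubb5, 499 with Gapdh and 0 with each of the other 3, although 5 probes with Actb, 273 with Actg1 and 249 with Nefh had an unadjusted p under 0.05. In such a fit the change and the noise of the reference enter every probe, so these counts describe the reference gene.

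**Figure D5:**
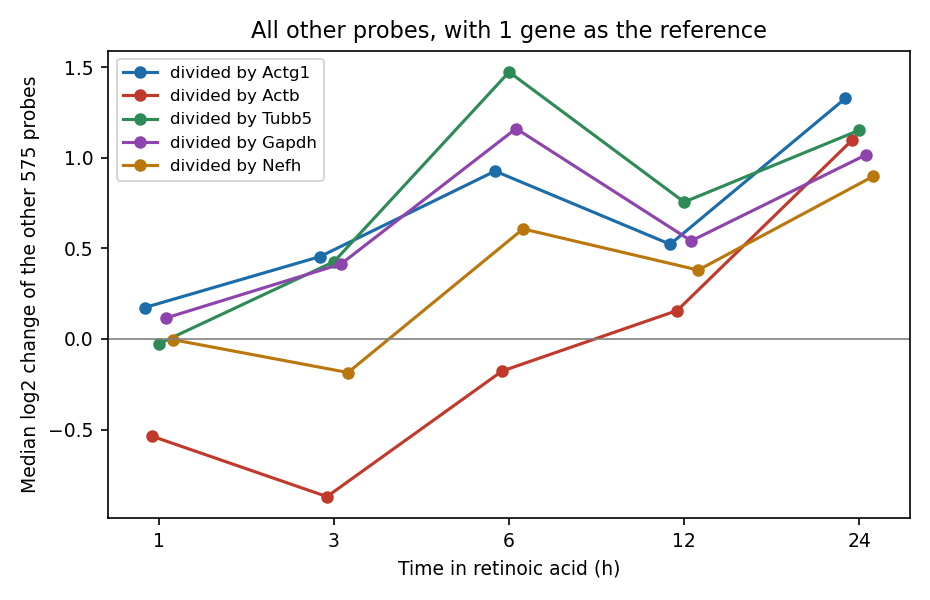
Median log2 change against 0 h of the other 575 probes when each array is divided by 1 of the 5 genes, against time in RA. The 5 references give medians from 0.90 to 1.33 at 24 h, while at 3 h Actb gives -0.87 and Actg1 gives 0.45.

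Other genes of the same structures were few on this array. Of 97 actin-cytoskeleton symbols listed, 15 genes beside the 2 actins were on the array, and at 24 h after quantile normalisation 9 were higher and 6 lower, with a median log2 change of 0.082 against -0.011 over all probes. Cyfip2, part of the WAVE complex through which Rac promotes branched actin, rose by 1.00 ± 0.20 (SE, adjusted p = 0.00485 in limma), and Ablim1, whose LIM-domain protein binds actin filaments, fell by 0.89 ± 0.20 (adjusted p = 0.00968). Of 18 tubulin and microtubule genes beside Tubb5, 9 were higher and 9 lower, with a median of -0.0025. Mark3, a kinase that phosphorylates microtubule-associated proteins, fell by 0.67 ± 0.16 (adjusted p = 0.0241), and Cep170b, a centrosomal and microtubule-associated protein, gave 0.59 ± 0.25 (adjusted p = 0.490). The 3 calls also held as deposited, with adjusted p of 0.0254, 0.00378 and 0.00910. Between late and early times 0 of these 33 genes passed after quantile normalisation, and as deposited 5 actin genes (2 higher, 3 lower) and 2 microtubule genes (1 higher, 1 lower) did, where 13.5% of all probes passed. At 24 h the 3 calls among 33 genes stand beside 1.04% of all probes after quantile normalisation and 1.91% as deposited. The lists were chosen with earlier results of these data known, so these shares are no test of the lists. Nefh was the only gene of 22 intermediate filament symbols on the array, Gapdh the only one of 27 of glycolysis and energy metabolism, and none of 27 other reference genes was present.

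The genes whose pattern over the 38 arrays was most like that of a member were taken from 445 named candidates by Pearson's r of quantile-normalised log2 values, which share array and group. For Actg1 these were Ctnnd1 (0.48), St18 (0.45) and Slc39a10 (0.38). For Actb they were Gramd1b (0.67), Zc3h11a (0.64) and Otud4 (0.62), and for Tubb5 Asap1 (0.69), Baz2a (0.68) and Usp33 (0.66). For Gapdh they were Dhx16 (0.57), Spata13 (0.57) and Dclk1 (0.57), and for Nefh Ganab (0.70), Usp8 (0.59) and Arrdc3 (0.59). The scale decided some of these pairs: as deposited, r was -0.25 for St18 with Actg1, -0.48 for Spata13 and -0.13 for Dclk1 with Gapdh, and 0.89 for Ganab with Nefh.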

How the data were processed

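The authors deposited 1 table of 576 probes on 38 arrays, with linear intensity values. Per the labels' protocols, Cy5-labelled cDNA of poly(A)+ RNA was hybridised to mKIAA oligonucleotide arrays, scanned on a Fujifilm FLA-8000 and quantified with Phoretix. Background correction, the step that put the deposited arrays on a common scale and the origin of the floor are not given in the sources used here. Probes were named through the platform annotation. Here, log2 intensities were quantile normalised and fitted with limma 3.58.1 (R 4.3.3, lmFit and eBayes) over all 576 probes and 6 groups, with Benjamini-Hochberg adjustment over all probes and a threshold of 0.05. The fit was repeated on the log2 values as deposited. No probe was filtered. Ratios of deposited intensity were tested with two-sided exact permutation tests (scipy 1.17.1), adjusted over 50 tests. The precision is limited by the number of arrays, 5 to 7 per group. The limma script was tested on simulated data. Alternatives were other scalings, an offset of 1, dim probes left out, other variance models, weights, covariates and arrays left out. All members are named; of each gene list the 2 genes with the smallest p at 24 h are named, and for each member the 3 most alike genes by Pearson's r. The members, lists and tests were chosen with earlier results of these data known.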

Additional observations from a re-analysis of the deposited data

Results flagged for a closer look

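In 120 groups of 4 to 10 values, each array was set against the others of its group for a gap that is large beside the group's range. Chance gives such a gap in about 1 of 20 separate groups without ties, and 12 groups held such an array. The 120 groups share arrays, and many values were tied after quantile normalisation, so the 12 cannot be compared with that rate. Control replicate 1 was the lowest for Actg1, at a log2 value of 5.13 as deposited (the nearest array was at 6.59) and 4.71 after quantile normalisation, and the highest for Gapdh, at 6.21 after quantile normalisation. The report gives the Actg1 change with and without this array. Control replicate 6 was the highest for Actb, at 6.65 as deposited and 6.21 after quantile normalisation. After quantile normalisation 12 h replicate 7 was the lowest for Actg1 at 5.43, the highest for Actb at 7.13 and the lowest for Gapdh at 3.63. As deposited, 1 h replicate 1 was the lowest for Actg1 at 5.13, and 3 h replicate 1 the lowest for Tubb5 at 1.99. These 2 arrays also had the lowest rank correlations with the others, and the part of array quality in their values was not tested. The log2 ratio of Actg1 to Tubb5 was highest on 1 h replicate 5 at 2.04, and that of Actg1 to Gapdh was lowest on 24 h replicate 2 at 0.48.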

How the results depend on the processing

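The main setting was quantile normalisation for the log2 changes and the deposited values for the ratios, with 5 alternatives chosen after seeing the data: those that left out the arrays of lowest rank correlation, those on deposited values with the range as a covariate, without arrays above the floor or with a replicate block, and division by a member. Of 480 comparisons of a member's log2 change with an alternative, 419 kept the direction and the side of the threshold, as did 215 of 250 for the ratios, and the count of 0 pairs whose ratio differed was the same under all 25. The cause of the changes below was not tested. No member was at the floor, but Nefh was dim, down to 1.25 on 12 h replicate 2 against a floor of 0.540. Whether low signal limits its values was not tested. The top probes' few distinct places after quantile normalisation limit that scale.

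The count of members called against 0 h was 0 in the main setting at every time. Between late and early times the count was 1 on the deposited values, 1 with median centring and 1 with array quality weights, which is Nefh, and over any time it was 2 with array quality weights (Actg1 and Actb). Leaving out 1 array gave 0 to 1 members at 24 h and 0 to 1 over any time.

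The replicate numbers are shared by all groups, but the correlation of same-numbered arrays' deviations exceeded 0.1 for 2 of 5 pairs at 1 h against 0 h, 3 of 5 at 3 h, 1 of 7 at 6 h, 4 of 7 at 12 h and 3 of 7 at 24 h, so the numbers were not taken to pair the treated arrays with the control. Between 1 h and 3 h it exceeded 0.1 for 5 of 5, from 0.20 to 0.82. Of the 7 control arrays 3 correlated best with the 24 h array of their own number. Control replicate 1 correlated best with replicate 1 at 1 h (0.59), 3 h (0.58), 12 h (0.31) and 24 h (0.46), but not at 6 h (0.24). Whether the replicate 1 arrays share an origin was not tested. A replicate block on the quantile scale moved the number of probes called from 6 to 8 at 24 h and from 2 to 8 between late and early times, and gave 0 members called in each comparison. It turned Gapdh between late and early times to 0.084 and the log2 ratios to 0.18 for Actg1/Gapdh at 1 h and, at 3 h, 0.20 for Actg1/Gapdh and 0.38 for Tubb5/Gapdh. With a replicate block on the deposited values 2 members were called at 24 h (limma adjusted p of 0.0435 for Actg1 and 0.0330 for Nefh), 2 between late and early times (0.00267 for Actb and 0.00749 for Nefh) and 2 over any time (0.0360 for Actb and 0.0278 for Nefh), and Nefh gave 0.079 at 1 h and -0.30 at 12 h.

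Some log2 changes that turned direction were close to 0, and others were large, up to 3.89 for Actg1 at 12 h with division by the spread. Deposited values gave 0.0039 for Nefh at 1 h and -0.30 at 12 h, and median centring gave 0.024 and -0.33. Centring with division by the spread gave 0.037 for Nefh at 1 h, 1.82 for Actg1 and 0.69 for Gapdh at 6 h, and 3.89 for Actg1, 2.60 for Actb, 1.62 for Tubb5 and 2.45 for Gapdh at 12 h. The same scaling gave 1.86, 1.51, 1.15 and 1.36 for these genes at 24 h and 3.24, 1.60, 1.60 and 2.22 between late and early times. Cyclic loess gave -0.025 for Tubb5 and 0.072 for Nefh at 1 h, 0.073 for Actb at 12 h and 0.13 for Gapdh between late and early times. Array weights gave -0.14 for Actb, -0.11 for Tubb5, 0.053 for Gapdh and 0.015 for Nefh at 1 h, -0.059 for Nefh at 12 h and 0.077 for Gapdh between late and early times. The range as a covariate gave 0.29 for Actb at 12 h, 0.022 for Actb and 0.040 for Tubb5 at 24 h, and 0.21 for Tubb5 between late and early times. On the deposited values that covariate gave -0.080 for Tubb5 at 1 h, 0.029 for Actg1, 0.84 for Actb and 0.098 for Tubb5 at 12 h, 0.51 for Actb and 0.22 for Tubb5 at 24 h, and 0.22 for Actg1, 0.19 for Actb, 0.55 for Tubb5 and 0.20 for Gapdh between late and early times. The 8 arrays above the floor were all at 6 h, 12 h or 24 h. Without them, Actb gave 0.19 at 12 h and Gapdh 0.052 between late and early times, and on deposited values Nefh gave 0.0039 at 1 h and -0.067 at 12 h and Actb 0.66 at 12 h. Without the 5 arrays of lowest rank correlation, Actg1 gave 0.029 and Nefh 0.079 at 1 h and Gapdh 0.12 between late and early times. Leaving out 1 array gave ranges at 1 h of -0.44 to 0.014 for Actg1, -0.29 to 0.30 for Actb, -0.014 to 0.093 for Tubb5, -0.30 to 0.12 for Gapdh and -0.094 to 0.077 for Nefh. The ranges were -0.056 to 0.17 for Nefh at 3 h, -0.30 to 0.16 for Actb at 12 h, and -0.31 to 0.0022 for Tubb5 and -0.13 to 0.037 for Gapdh between late and early times.

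Among the log2 ratios, quantile normalisation gave 0.0022 for Actg1/Gapdh at 1 h, 0.098 for Tubb5/Gapdh at 3 h, -0.016 for Actg1/Tubb5 and -0.36 for Actg1/Gapdh at 6 h, and -0.30 for Actg1/Tubb5, -0.38 for Actg1/Gapdh and -0.11 for Actb/Nefh at 12 h. At 24 h it gave -0.22 for Actb/Tubb5, 0.0098 for Actb/Gapdh, 0.23 for Tubb5/Gapdh and 0.022 for Tubb5/Nefh. Values after division by the array range are in units of that range, not log2 units, and a narrower range enlarges a positive log2 ratio. Division by the array range gave -0.097 for Tubb5/Nefh at 1 h, 0.0045 for Tubb5/Gapdh at 3 h, 1.69 for Actg1/Nefh and 0.70 for Gapdh/Nefh at 6 h, and 1.00 for Actg1/Actb, 2.99 for Actg1/Nefh, 1.15 for Tubb5/Nefh and 1.83 for Gapdh/Nefh at 12 h. At 24 h it gave 0.37 for Actg1/Actb, 0.71 for Actg1/Tubb5, 0.50 for Actg1/Gapdh, 2.07 for Actg1/Nefh, 0.13 for Actb/Gapdh, 1.70 for Actb/Nefh, 1.36 for Tubb5/Nefh and 1.58 for Gapdh/Nefh. Adding 1 before the ratio gave 0.020 for Tubb5/Gapdh at 3 h and -0.0049 for Actg1/Gapdh at 12 h, and without arrays above the floor Actg1/Actb gave 0.62, Actg1/Tubb5 0.62 and Actb/Tubb5 -0.0023 at 24 h. Leaving out 1 array gave, at 1 h, -0.37 to 0.030 for Actg1/Tubb5, -0.37 to 0.23 for Actg1/Gapdh, -0.35 to 0.069 for Actg1/Nefh, -0.057 to 0.41 for Tubb5/Gapdh, -0.13 to 0.18 for Tubb5/Nefh and -0.23 to 0.047 for Gapdh/Nefh. At 3 h the ranges were -0.34 to 0.24 for Actg1/Tubb5, -0.55 to 0.20 for Actg1/Gapdh and -0.27 to 0.48 for Tubb5/Gapdh, and at 6 h -0.078 to 0.38 for Actg1/Gapdh. At 12 h they were -0.29 to 0.16 for Actg1/Gapdh, -0.29 to 0.10 for Actg1/Nefh and -0.42 to 0.038 for Gapdh/Nefh. At 24 h they were -0.36 to 0.055 for Actg1/Tubb5, -0.11 to 0.23 for Actb/Tubb5, -0.31 to 0.14 for Actb/Gapdh, -0.35 to 0.050 for Tubb5/Gapdh and -0.23 to 0.048 for Gapdh/Nefh.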
